A study of Arabidopsis thaliana with 14 samples.

Results

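In Arabidopsis thaliana roots, 300 stretches downstream of annotated genes carried the most reads relative to their own gene in wild-type plants grown in pots, and these are described here. For every downstream stretch in the deposited tables, called a 3′ extension, the reads over both pot Col-0 samples were divided by the reads over the gene it follows (the gene body, all exons). The tables held 1462 such rows, of which 1371 had at least 20 extension reads and at least 1 gene-body read in pot Col-0, and the 300 with the highest ratio are the members. The ratio compares reads, not reads per base: the tables give no extension lengths, so a long extension of a short gene has a high ratio by its size alone.

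Poly(A)+ RNA of roots was sequenced from pho1-7 tex1-4, pho1-7 hpr1-5, pho1-7 and Col-0 plants after 3 weeks in pots of clay substrate (2 samples each) and from tex1-4 and Col-0 seedlings after 10 days on sugar-containing agar plates (3 samples each). The 10 days are those of the sample labels, while the study's text gives a shorter time on plates. pho1-7 carries a T-DNA insertion in PHO1, a phosphate exporter that loads the root xylem, and all mutant pot groups share it, so no pot group has a THO/TREX mutation alone. tex1-4 is an insertion allele of TEX1; the hpr1 allele is written hpr1-5 in the sample labels, while the study's text calls it hpr1-6. Sample titles mark the pot libraries as single-end and the plate libraries as paired-end, while the study's text describes paired-end sequencing of the pot genotypes. Growth system, age and, by the titles, library type cannot be told apart. The tex1-4 effect was measured against pho1-7 in pots and against Col-0 on plates, so genetic background differs between them too. No source says whether the samples of a group were separate plantings, so the p-values measure only the spread between these samples.

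TEX1 and HPR1 are subunits of THO/TREX, a complex that travels with RNA polymerase II and couples transcription to splicing and to export of the mRNA. At the end of a gene the nascent RNA is cleaved and polyadenylated and the polymerase is released; when this fails, transcription reads through into the sequence downstream and the RNA gains a 3′ extension. Genes of small RNAs are annotated differently from other genes: the model of a microRNA or snoRNA gene mostly covers the hairpin or the mature RNA, while the primary transcript that the polymerase makes is longer.

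Gene bodies held 56068761 to 110039106 reads per sample and extensions 174237 to 375168, and the median member had 78 to 130.5 extension reads per sample, so counting error is large for many members. The labels fitted the mutated genes: TEX1 was at 0.706 to 1.03 counts per 1000000 gene-body reads (CPM) in pho1-7 tex1-4 against 12.36 to 14.02 CPM in pho1-7, and at 2.15 to 2.67 CPM in plate tex1-4 against 14.04 to 14.83 CPM in plate Col-0. HPR1 was at 11.45 to 12.55 CPM in pho1-7 hpr1-5 against 33.8 to 37.0 CPM in pho1-7, and PHO1 at 192 to 425 CPM in the pho1-7 groups against 957 to 1022 CPM in pot Col-0. The 5 root markers other than PHO1 (CASP1, SCR, SHR, COBL9 and WER) summed to 246.4 to 423 CPM in every sample, and 5 genes of green tissue to 2.764 to 65.47 CPM. The green-tissue sums of the 2 pho1-7 tex1-4 samples lay far apart, at 2.764 and 43.26 CPM. Plate Col-0 sample 2 stood apart from its replicates, with a chi-square per degree of freedom of 116.3 and 93.81 against them, compared with 11.35 to 40.97 for all other replicate pairs.

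The members ran from a ratio of 0.285 to 205 with a median of 0.635, against a median of 0.0790 for the other 1071 rows that met the minimum. In 105 members the extension had more reads than the gene, and in 13 more than 10 times as many. The values that set the limit changed little across it: scpl3 (AT1G73280) at 0.287, AT5G26080 at 0.287 and TAF14 (AT2G18000) at 0.285 were the last inside, and MEF3 (AT1G06140) at 0.285, AT4G03635 at 0.283 and AT2G11880 at 0.283 the first outside. Both pot Col-0 samples gave like ratios for most members: over 297 with gene-body reads in both, the median absolute difference was 0.155 on the log2 scale and 11 differed by more than 2-fold.

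**Figure D1:**
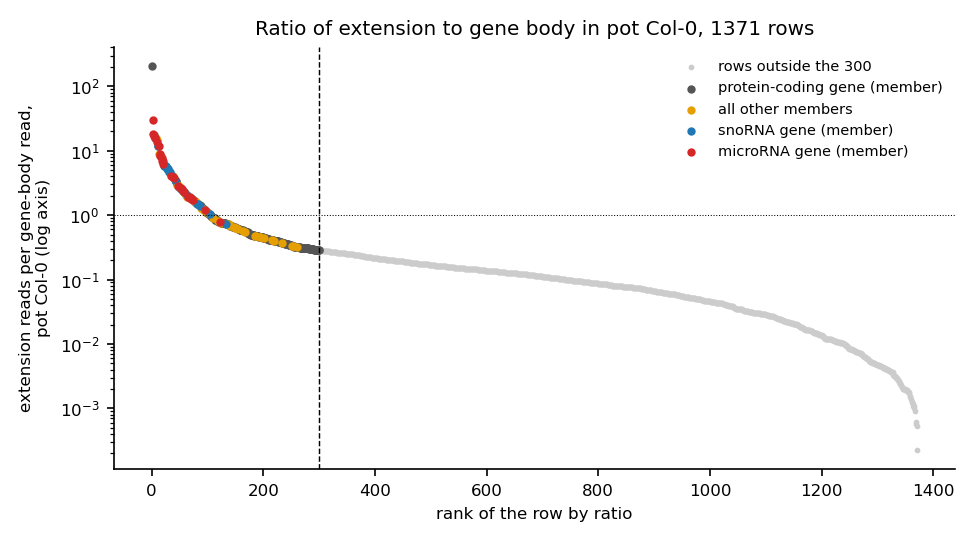
Extension reads per gene-body read over both pot Col-0 samples (log axis) against rank for 1371 rows; colours give the gene class of the members, grey points are rows outside the list, the dashed line is the limit of 300 and the dotted line a ratio of 1. MicroRNA and snoRNA genes sit mostly at the top of the ranking, where 105 members exceed 1.

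High ratios went with few gene-body reads, which are part of the ratio, more than with many extension reads. Members had a median of 290 gene-body reads in pot Col-0, against 2449 in the other rows, and 98 members but 1 other row had under 100. Their exons were shorter too, with a median of 822 bases against 1990. The members' extension reads ran from 20 to 165098 with a median of 193, under 100 reads in 88 members and over 1000 in 37, against a median of 128 in the other rows.

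By annotation 208 members were protein-coding genes (median ratio 0.476), 26 microRNA genes (4.01), 23 snoRNA genes (4.21), 20 pseudogenes or transposable element genes (0.517), 10 other non-coding RNA genes (0.722), 3 rRNA genes (8.90) and 1 an snRNA gene (2.89). Of the remaining 9, which the TAIR10.1 annotation did not hold, 7 were mitochondrial. The rule took nearly all small-RNA rows that met the minimum, 26 of 27 microRNA genes and 23 of 23 snoRNA genes, but 208 of 1244 protein-coding genes. Among the protein-coding members 54 had no known function by their product text, 9 were transcription factors (of 107 that met the minimum), 9 ubiquitin or F-box proteins (of 25), 8 defensin-like or other small secreted peptides (of 16) and 3 protein kinases (of 73). No cytochrome P450 (of 9) and no peroxidase (of 4) was a member, and RPL41 was the only ribosomal protein of 15.

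Of the 26 microRNA members 11 shared a seed, the bases 2 to 8 that pair first with a target, with another member. MIR160a, MIR160b and MIR160c share 1 seed, MIR165a, MIR166a, MIR166b and MIR166e another, and MIR171b and MIR171c, like MIR159a and MIR159b, also share theirs. The mature RNAs below belong to members with the highest ratios or with a ratio that differed between genotypes; they are taken from RefSeq (TAIR10.1), written 5′ to 3′ with the seed in capitals. miR160 is known to target auxin response factors, miR165 and miR166 class III HD-ZIP transcription factors, miR156 SPL transcription factors, miR396 growth-regulating factors and miR823 a DNA methyltransferase.
ath-miR166a-3p: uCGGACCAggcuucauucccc
ath-miR165a-3p: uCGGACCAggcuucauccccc
ath-miR160b: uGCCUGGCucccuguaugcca
ath-miR396b-5p: uUCCACAGcuuucuugaacuu
ath-miR156b-5p: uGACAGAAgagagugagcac
ath-miR823: uGGGUGGUgaucauauaagau

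These mature RNAs lie on chr2:19176241-19176261 (plus strand), chr1:78932-78952 (minus), chr4:9888986-9889006 (plus), chr5:13611808-13611828 (plus), chr4:15074945-15074964 (plus) and chr3:4496826-4496846 (minus), in the order of the lines above. MIR160a and MIR160c encode the same mature 5p RNA as MIR160b, and MIR166b and MIR166e the same 3p RNA as MIR166a, while miR165a-3p shares their seed. The study assembled extensions in the intervals between annotated genes. Their positions are not given, so whether reads counted there also reach the sequences shown was not tested. The hairpin models are short, 135 bases at the median over the 26 microRNA genes and 87 over the 23 snoRNA genes.

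Pot Col-0 ratios of the microRNA members covered the range from 0.775 for MIR822 to 29.7 for MIR166a. Besides MIR166a, MIR160b was at 18.3, MIR160c at 16.7, MIR165a at 16.0, MIR396b at 13.7 and MIR160a at 11.6. MIR781a (8.79), MIR823 (8.17), MIR168a (7.74), MIR164b (6.91), MIR166e (6.88), MIR166b (6.18), MIR779 (4.11), MIR156b (3.92) and MIR158a (3.75) lay between, and MIR171c, MIR159a, MIR403, MIR846 and MIR827 between 2.25 and 2.86. MIR171b, MIR159b, MIR419, MIR167b and MIR413 were between 1.20 and 1.91. In TAIR10.1 another gene on the same strand overlaps or directly follows MIR156b, MIR781a and MIR823, and what it adds to their extension reads was not tested.

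Summed over the 26 microRNA genes, extension reads per gene-body read were 1.99 and 1.85 in pho1-7 tex1-4, 2.07 and 2.03 in pho1-7 hpr1-5, 2.096 and 2.03 in pho1-7 and 2.19 and 2.29 in pot Col-0. On plates the sums were 2.33, 2.66 and 2.31 in tex1-4 against 2.35, 2.47 and 2.21 in Col-0, which overlap. The 23 snoRNA genes gave 2.85 and 2.70 in pho1-7 tex1-4, 2.63 and 2.92 in pho1-7 hpr1-5, 2.88 and 3.14 in pho1-7, 3.05 and 3.00 in pot Col-0, and 2.67, 2.73 and 2.68 in plate tex1-4 against 2.87, 2.72 and 2.90 in plate Col-0. These class sums differed little between the genotypes and between the growth systems.

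MIR160c, with far more extension reads than the median member (193 over both pot Col-0 samples), serves as an example. It had 518 extension reads beside 31 gene-body reads and 665 beside 51 in pho1-7 tex1-4, 373 beside 22 and 428 beside 23 in pho1-7 hpr1-5, and 865 beside 53 and 950 beside 66 in pho1-7, with 1093 beside 74 and 961 beside 49 in pot Col-0. On plates the pairs were 637 and 31, 828 and 38, and 672 and 27 in tex1-4, against 572 and 22, 777 and 37, and 723 and 37 in Col-0. The ratio stayed between 13.0 and 26.0 in all 14 samples although its gene body in pho1-7 hpr1-5 fell by 1.45 on the log2 scale (SE 0.255, adjusted p = 0.00454, edgeR quasi-likelihood test): the extension fell with it.

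At the head of the ranking stood AT5G28491, an uncharacterized protein-coding gene of 126 exon bases at 205, from 410 extension reads and 2 gene-body reads. The gene overlaps AT5G28490 on the same strand in TAIR10.1. AT1G19410, an FBD and leucine-rich repeat gene, followed at 17.6, and the next gene on its strand begins 8 bases downstream, although the study's methods kept extensions longer than 200 nucleotides, so where its reads lie cannot be told from the tables. In TAIR10.1 the gap to the next gene was under 200 bases for 60 of 291 placed members, 31 of them overlapping, against 378 of 1071 other rows, and the median distance was 737 against 378 bases. The remaining members above 11 were the snoRNA genes AT3G21805 (15.9) and AT3G27865 (11.96), the mitochondrial ATMG01120 (15.7), the 18S rRNA gene AT2G01010 (14.4) and AT2G01021 (11.8), an uncharacterized gene near it. Ribosomal RNA genes and the mitochondrial genome exist in near-identical copies, so their read counts are uncertain.

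Features of position and sequence that the rule did not use can be set beside the ranking, as descriptions. The next gene was on the same strand for 59.5% of placed members (173 of 291) and 62.7% of the other rows. A locus of TAIR10.1 that the deposited tables did not count lay in the gap of 13.7% of members and 4.30% of the other rows. Among protein-coding genes alone the shares were closer, at 6.73% of members (14 of 208) and 4.05% of the other rows. The members' gaps were also longer, with a median of 737 against 378 bases. Some extension reads may thus belong to a gene the counting did not know, which was not tested. The polyadenylation signal AATAAA, searched as these letters on the gene's strand in the last 50 bases of the annotated gene, was present in 7.21% of the protein-coding members (15 of 208), 8.49% of the protein-coding other rows and 9.77% of all 27433 protein-coding genes.

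A few members held most of the reads. The 300 members, 20.5% of the rows, took 54.8% of all extension reads in pot Col-0, the 10 largest took 38.6%, and 1 gene, AT5G33355, took 24.6%. AT5G33355 belongs to the defensin-like (DEFL) family of small, cysteine-rich secreted peptides, and lies at chr5:12599250-12599944 on the plus strand of TAIR10.1. Together the 8 small secreted peptide genes held 189013 reads, 28.1% of all. Of the extension reads outside AT5G33355, the other 299 members took 40.0%.

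**Figure D2:**
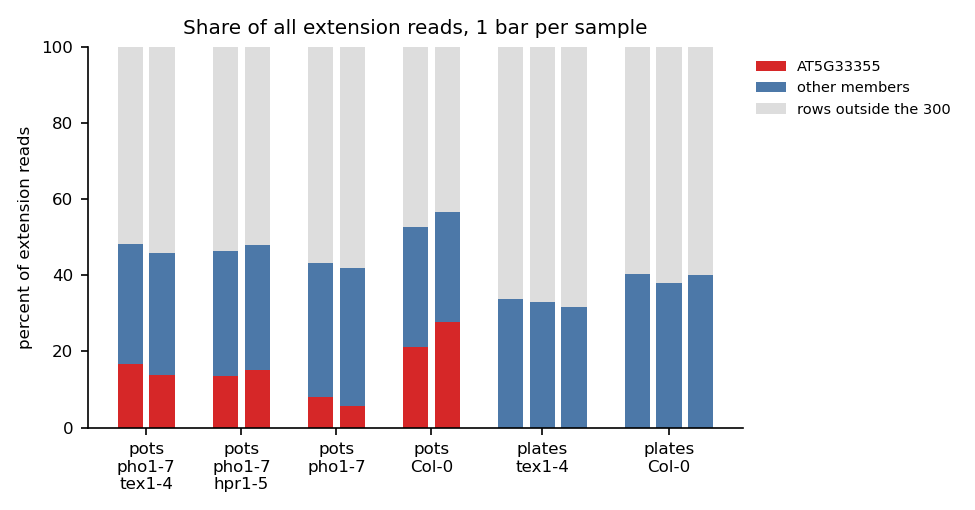
Percent of all extension reads in each of the 14 samples that fell on AT5G33355, on the other 299 members and on the rows outside the list. AT5G33355 takes 21.1% and 27.8% in pot Col-0 and is not visible on plates.

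Among the pot groups the members' share differed mostly with AT5G33355. Members took 48.3% and 45.9% of the extension reads in pho1-7 tex1-4, 46.3% and 47.9% in pho1-7 hpr1-5, 43.3% and 42.0% in pho1-7 and 52.6% and 56.8% in pot Col-0. Among the reads outside AT5G33355 the shares came to 38.0% and 37.2%, 37.8% and 38.6%, 38.3% and 38.6%, and 39.9% and 40.1% in the same order. The members were chosen on pot Col-0, so a high share in that group follows in part from the choice. The shares of both double mutants lay above those of pho1-7, by 4.41 and 4.45 percentage points, only while AT5G33355 was counted; with 2 samples against 2 the two-sided exact permutation test cannot go below 0.333, the p of both differences.

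On plates the members took a smaller share in tex1-4 than in Col-0, 33.8%, 33.0% and 31.8% against 40.5%, 38.1% and 40.0%. The groups do not overlap, and the difference of 6.67 percentage points (33.8% and below against 38.1% and above; 32.9% ± 0.999 in tex1-4 and 39.5% ± 1.26 in Col-0, SD, n = 3 each) had an exact permutation p of 0.1, two-sided, the smallest this design allows. The members' own extension reads per 1000000 gene-body reads were 656, 775 and 686 in tex1-4 and 784, 672 and 774 in Col-0, which overlap (exact permutation p = 0.6), while the rows outside the list had 1286, 1577 and 1471 in tex1-4 against 1153, 1092 and 1161 in Col-0, with no overlap (exact permutation p = 0.1). Col-0 sample 2, which stood apart from its replicates, had the lowest member value of Col-0.

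For AT5G33355, AT2G36255, HSD2 and AT5G26130, among the 10 members with the most extension reads, expression moved more between pot genotypes than the ratio did. AT5G33355 had 1.63 and 1.66 extension reads per gene-body read in pho1-7 tex1-4, 1.69 and 1.74 in pho1-7 hpr1-5, 1.99 and 1.89 in pho1-7 and 1.84 and 1.98 in pot Col-0. Its gene body was at 450 and 316 CPM in pho1-7 tex1-4 and 288 and 345 CPM in pho1-7 hpr1-5, against 160 and 115 CPM in pho1-7, with 524 and 738 CPM in pot Col-0 and at most 0.102 CPM in any plate sample. The gene body rose by 1.49 on the log2 scale in pho1-7 tex1-4 (SE 0.238, adjusted p = 0.00333) and by 1.22 in pho1-7 hpr1-5 (SE 0.236, adjusted p = 0.00686; edgeR), with the second falling under 2-fold (0.98) without pho1-7 sample 2. All ratios of the double mutants lay below both of pho1-7, but the change was not called in either (log2 change -0.24, adjusted p = 0.206, and -0.17, adjusted p = 0.363). These are whole roots, so fewer cells of a type and less RNA per cell cannot be told apart.

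AT2G36255, another defensin-like gene, moved more. Its gene body was at 210 and 123 CPM in pho1-7 tex1-4 and 96.2 and 135 CPM in pho1-7 hpr1-5, against 23.0 and 17.7 CPM in pho1-7, with 165 and 233 CPM in pot Col-0, and both double mutants lay above every pho1-7 sample (log2 change 3.04, adjusted p = 0.000577, and 2.52, adjusted p = 0.000828, edgeR). The ratio stayed at 0.716 and 0.715, 0.699 and 0.706, 0.753 and 0.740, and 0.736 and 0.749 in the same groups. AT4G11393, also a DEFL gene, did likewise, with 53.0 and 35.6 CPM in pho1-7 tex1-4 and 25.8 and 32.0 CPM in pho1-7 hpr1-5, against 11.6 and 7.08 CPM in pho1-7. Of the 8 small secreted peptide genes the gene body rose in 5 in pho1-7 tex1-4 and in 4 in pho1-7 hpr1-5 and fell in none, where 2.13% and 2.73% of all genes tested rose; the fifth in pho1-7 tex1-4 was CLE14, of the CLE peptide family, and in both doubles RTFL11, a ROTUNDIFOLIA-like peptide gene, rose. The calls of CLE14 in pho1-7 tex1-4 and of RTFL11 in pho1-7 hpr1-5 did not hold when single samples were left out. The median log2 change of the 8 gene bodies was 1.26 in pho1-7 tex1-4 and 0.745 in pho1-7 hpr1-5, against 0.0203 and 0.00823 over all genes tested, and no ratio of the 8 was called in these comparisons. On plates, where these genes were low, none of 7 tested rose and AT2G36255 fell (0.138, 0.0192 and 0.109 CPM in tex1-4 against 0.467, 0.828 and 0.460 CPM in Col-0, adjusted p = 0.0146, edgeR).

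HSD2 (AT3G47350), annotated as hydroxysteroid dehydrogenase 2, had the second most extension reads and the same behaviour in the other direction. Its gene body was at 15.9 and 16.0 CPM in pho1-7 tex1-4 and 37.7 and 42.6 CPM in pho1-7 hpr1-5, against 49.2 and 50.6 CPM in pho1-7 and 44.3 and 43.3 CPM in pot Col-0, and at 9.46, 9.91 and 9.61 CPM in plate tex1-4 against 35.2, 28.1 and 36.0 CPM in plate Col-0. It fell by 1.63 on the log2 scale in pho1-7 tex1-4 (adjusted p = 2.47e-05) and by 1.81 in plate tex1-4 (adjusted p = 0.000209, edgeR), and the change of -0.29 in pho1-7 hpr1-5 stayed under 2-fold. The ratio was 3.91 and 4.01 in pho1-7 tex1-4, 3.57 and 3.42 in pho1-7 hpr1-5, 3.96 and 4.18 in pho1-7, 3.98 and 4.07 in pot Col-0, and 4.25, 4.73 and 4.47 in plate tex1-4 against 4.21, 4.10 and 4.22 in plate Col-0. The snoRNA gene AT3G47348 lies 770 bases upstream of HSD2 on the same strand and is a member too; its gene body fell by 1.31 on the log2 scale in plate tex1-4 (adjusted p = 0.00158, edgeR).

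AT5G26130, a CAP-family gene related to pathogenesis-related secreted proteins, was the fifth by reads. It had 96.3 and 142 CPM in pho1-7 tex1-4 and 54.8 and 44.5 CPM in pho1-7 hpr1-5, against 420 and 242 CPM in pho1-7, with 214 and 269 CPM in pot Col-0, and its gene body fell by 1.46 (adjusted p = 0.00747) and 2.71 (adjusted p = 0.000693, edgeR) on the log2 scale, the first of which was -0.99 without pho1-7 sample 1. No plate sample had a read. Its ratio stayed between 0.272 and 0.305 in all 8 pot samples.

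The remaining members with many reads had no called ratio either. RPL41 (AT3G08520), a small protein of the large ribosomal subunit, was at ratios of 0.786 and 0.787 in pho1-7 tex1-4, 0.760 and 0.842 in pho1-7 hpr1-5, 0.853 and 0.888 in pho1-7 and 0.842 and 0.847 in pot Col-0, and at 0.400 to 0.403 in plate tex1-4 against 0.403 to 0.459 in plate Col-0. AT4G02715 lay between 1.05 and 1.501 in all 14 samples and AT1G54950, an uncharacterized gene, between 1.48 and 1.60 in the pot samples. AT3G24480, a leucine-rich repeat gene, was at 0.180 to 0.403 and AT1G67785 at 0.259 to 0.320 on plates and 0.508 to 0.677 in pots. The 5.8S rRNA gene AT3G41979 was at 3.01 to 4.02 on plates and 7.97 to 10.6 in pots; its gene body fell by 1.17 on the log2 scale in pho1-7 hpr1-5 (2.11 and 1.94 CPM against 5.29 and 3.97 CPM in pho1-7, adjusted p = 0.00521, edgeR), a change of -0.93 without pho1-7 sample 1.

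Whether the ratio itself changed was tested with a model of both counts of each sample over all rows (edgeR quasi-likelihood test with Benjamini-Hochberg adjustment over all rows). A change counted as called when its adjusted p was under 0.1 and it exceeded 2-fold. The list was chosen on pot Col-0, so no contrast of pots with Col-0 was tested for the members. In pho1-7 tex1-4 against pho1-7 the ratio rose in 2 of 300 members and fell in 1, where 4.66% of all 1458 rows tested rose and 4.05% fell. In pho1-7 hpr1-5 against pho1-7, which uses the same pho1-7 samples, it rose in 4 and fell in 4, against 3.09% and 5.83% of all rows. In plate tex1-4 against plate Col-0 it rose in 6 of 295 members and fell in 2, against 11.0% and 2.52% of all 1430 rows. Of the members this is 0.667% and 0.333%, 1.33% and 1.33%, and 2.03% and 0.678%, each under the share of all rows in that direction, a difference that was not tested.

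The size of the changes was small as well. The members' median log2 change of the ratio was -0.05 for pho1-7 tex1-4, -0.11 for pho1-7 hpr1-5 and 0.10 for plate tex1-4, against 0.00, -0.14 and 0.24 over all rows tested. The ratio changed by under 2-fold in 294 and 286 of 300 members in the pot comparisons and in 282 of 295 on plates. Members had about the same precision as the other rows: the median SE of the log2 change was 0.203 against 0.220, 0.211 against 0.234 and 0.233 against 0.240. At an unadjusted p under 0.05 there were 26, 35 and 27 members, 8.67%, 11.7% and 9.15%, against 23.6%, 26.5% and 33.8% of all rows.

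Extension and gene body of the members moved together. Over the 271 members with at least 20 extension reads and 20 gene-body reads in each group, the log2 change of the extension in pho1-7 tex1-4 correlated with that of the gene body at r = 0.886, and over 269 and 265 members the value was 0.862 in pho1-7 hpr1-5 and 0.819 in plate tex1-4. The other rows gave 0.609, 0.582 and 0.494 over 1027, 1006 and 1024 rows. The value of r depends on the spread of the changes, which was wider in the members. In pho1-7 tex1-4 the gene body changed over 2-fold in 28 of 271 members and 34 of 1027 other rows. Extension and gene-body changes lay within 2-fold of each other in 98.9%, 97.8% and 97.4% of the members. For the other rows the shares were 91.04%, 91.05% and 86.7%. These are descriptions across genes that share libraries and depth, and genes are not independent replicates. Of the 28 members whose gene body changed over 2-fold in pho1-7 tex1-4 the extension moved the same way in 27, and in 21 of 22 in pho1-7 hpr1-5 and 21 of 24 in plate tex1-4. The other rows gave 33 of 34, 39 of 42 and 35 of 36, so by this count the members did not stand out.

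**Figure D3:**
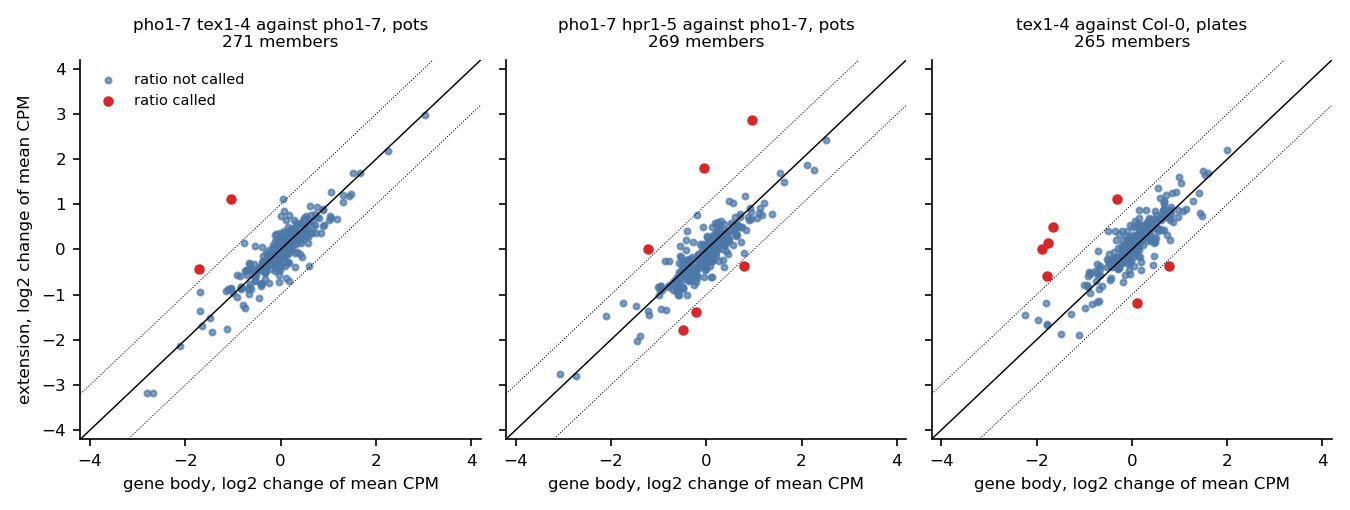
Log2 change of mean CPM of the extension against that of the gene body, 1 point per member with at least 20 reads of each kind in each group, in 3 comparisons; the solid line is equal change, the dotted lines 2-fold off it, and red points had a called ratio. Most of the 271, 269 and 265 members lie between the dotted lines.

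The gene bodies of members changed in more cases than the ratio. In pho1-7 tex1-4 15 of 287 members tested rose and 15 fell (2.13% and 2.88% of all 21972 genes tested), in pho1-7 hpr1-5 14 rose and 12 fell (2.73% and 2.46%), and in plate tex1-4 10 of 279 rose and 20 fell (2.33% and 3.09% of 21772 genes). Among the risen gene bodies the ratio was called in 0 of 15, 0 of 14 and 0 of 10, and among the fallen ones it rose in 1 of 15, 1 of 12 and 4 of 20 and fell in none. By class, the gene bodies of 6 of 23 snoRNA genes fell in plate tex1-4 and 1 rose, and of the 198 protein-coding members tested 12 fell and 8 rose.

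AT1G72960, annotated as an RHD3-type GTP-binding protein, rose in every one of these comparisons. Its gene body was at 7.60 and 8.02 CPM in pho1-7 tex1-4 and 6.16 and 6.23 CPM in pho1-7 hpr1-5, against 2.99 and 2.75 CPM in pho1-7, and at 2.56, 3.10 and 3.45 CPM in plate tex1-4 against 0.789, 0.838 and 0.644 CPM in plate Col-0. The changes were 1.46 (adjusted p = 0.000199), 1.13 (adjusted p = 0.000362) and 1.97 (adjusted p = 0.00142, edgeR) on the log2 scale, with no overlap between groups, and the ratio was called in none. IDL4, a gene of the IDA family of peptide ligands, rose by 1.54 in pho1-7 tex1-4 (adjusted p = 0.00104) and by 1.04 in plate tex1-4 (adjusted p = 0.0181, edgeR). The plate call of IDL4 was lost without Col-0 sample 3 (0.84), tex1-4 sample 2 (0.99) or tex1-4 sample 3 (0.98). AT4G25707, annotated as a splicing factor subunit, rose in the same comparisons by 1.32 (adjusted p = 0.00437) and 1.38 (adjusted p = 0.0032, edgeR). On plates AT3G20850, a proline-rich family gene, rose by 1.46 (adjusted p = 0.002, edgeR).

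Pseudogene and transposable element members gave some of the largest changes of the gene body. AT3G45120 had 0.285 and 0.232 CPM in pho1-7 tex1-4 and 0.157 and 0.275 CPM in pho1-7 hpr1-5, against 2.00 and 1.63 CPM in pho1-7, a fall by 2.81 (adjusted p = 0.000441) and 3.06 (adjusted p = 0.000267, edgeR) on the log2 scale. AT1G36680 fell by 2.09 in pho1-7 tex1-4 (adjusted p = 0.000328), and AT1G43675 rose by 2.13 in pho1-7 hpr1-5 (adjusted p = 0.000617, edgeR). The ratio of none of these was called.

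AT2G11405, an uncharacterized gene, was present in Col-0 and all but absent in every mutant. It had no read in pho1-7 tex1-4 and plate tex1-4, and at most 1 gene-body read and no extension read in any pho1-7 hpr1-5 or pho1-7 sample. In Col-0 there were 177 extension reads beside 113 gene-body reads and 137 beside 84 in pots, and 222 beside 148, 227 beside 149 and 271 beside 165 on plates. Its gene body was at least 171-fold lower in plate tex1-4 than in plate Col-0 (3 counts over the 3 tex1-4 samples taken as the floor, adjusted p = 0.000678, edgeR). Since pho1-7 without a THO/TREX mutation also lacked these reads, the loss was not seen only with tex1-4 or hpr1-5.

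The members with a changed ratio in pots were few, and several rest on few reads. AT1G03935, a snoRNA gene of 87 bases, had ratios of 5.21 and 3.44 in pho1-7 tex1-4, with 2.46 and 3.13 in pho1-7 hpr1-5, against 1.70 and 1.82 in pho1-7 and 1.78 and 1.92 in pot Col-0. The ratio rose by 1.19 on the log2 scale in pho1-7 tex1-4 (SE 0.236, adjusted p = 0.000917, edgeR), without overlap, and its gene body fell by 1.68 there (adjusted p = 0.00177) and by 2.07 in pho1-7 hpr1-5 (adjusted p = 0.000737). On plates the ratios were 13.9, 10.6 and 18.4 in tex1-4 against 3.19, 3.88 and 3.96 in Col-0, a rise by 1.89 (SE 0.267, adjusted p = 9.94e-06, edgeR) beside a gene-body fall by 1.80. Its extension itself was at 2.56, 2.44 and 2.34 CPM in plate tex1-4 against 2.20, 2.31 and 2.19 CPM in plate Col-0, so there the ratio rose as the gene body fell and the extension did not. Without the first pho1-7 tex1-4 sample the pot change was 0.96, under 2-fold, and in DESeq2 on the extension counts alone neither rise was called.

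AT3G59710, annotated as an NAD(P)-binding Rossmann-fold protein, had a higher ratio in both double mutants. Its extension and gene-body reads were 76 and 11, then 72 and 47, in pho1-7 tex1-4, with 83 and 44, then 132 and 44, in pho1-7 hpr1-5, against 21 and 38, then 39 and 48, in pho1-7 and 25 and 35, then 18 and 30, in pot Col-0. Every double mutant sample had more extension reads than gene-body reads and neither pho1-7 sample did, and the ratio rose by 1.87 (SE 0.433, adjusted p = 0.00371) and 1.80 (SE 0.401, adjusted p = 0.0023, edgeR) on the log2 scale. The spread within pho1-7 tex1-4 was wide: the change was 1.13 without its first sample and 3.29 without its second. On plates the gene had more reads and a low ratio, 0.131, 0.113 and 0.110 in tex1-4 and 0.203, 0.123 and 0.167 in Col-0 (log2 change -0.46, adjusted p = 0.139, edgeR). The tex1-4 effect in pots (against pho1-7) minus that on plates (against Col-0) was 2.36 (log2, SE 0.504, adjusted p = 0.00612, edgeR). AT3G59710 was 1 of 5 rows of 1462 (0.342%) called in that direction.

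MIR160b was the 1 member whose ratio fell in pho1-7 tex1-4. It had 106 extension reads beside 9 gene-body reads and 134 beside 12 in pho1-7 tex1-4, against 126 beside 6 and 185 beside 5 in pho1-7, which gives ratios of 11.8 and 11.2 against 21.0 and 37.0. There were 75 beside 6 and 113 beside 9 in pho1-7 hpr1-5, and 105 beside 5 and 115 beside 7 in pot Col-0. The log2 change of -1.30 (SE 0.482, adjusted p = 0.0844, edgeR) was no longer called without either pho1-7 tex1-4 sample (-1.33 and -1.25), without the second pho1-7 sample (-0.87), or in DESeq2. On plates the ratios overlapped, at 22.8, 22.4 and 8.28 in tex1-4 and 16.6, 7.35 and 11.0 in Col-0.

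In pho1-7 hpr1-5 the firmest rise was that of AT3G13277, a non-coding RNA gene of 1514 exon bases. Its ratio was 1.96 and 2.11 in pho1-7 hpr1-5, with 0.885 and 0.966 in pho1-7 tex1-4, against 0.549 and 0.528 in pho1-7, with 0.664 and 0.562 in pot Col-0. The ratio rose by 1.92 (log2) in pho1-7 hpr1-5 (SE 0.115, adjusted p = 2.26e-11), and the change of 0.79 in pho1-7 tex1-4 (adjusted p = 7.07e-05) stayed under 2-fold. On plates it was 1.51, 1.81 and 1.54 in tex1-4 against 0.964, 1.27 and 0.928 in Col-0, without overlap, and the change of 0.63 (adjusted p = 0.00586, edgeR) was again under 2-fold. All mutant groups with a THO/TREX mutation therefore had higher ratios than their controls.

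SNOR37-2 (AT4G15258), a snoRNA gene, had ratios of 6.18 and 7.67 in pho1-7 hpr1-5 and 5.15 and 6 in pho1-7 tex1-4, against 3.47 and 2.52 in pho1-7. It rose by 1.21 (log2) in pho1-7 hpr1-5 (SE 0.378, adjusted p = 0.0296), and on plates, with 5.36, 8.71 and 8 in tex1-4 against 2.25, 1.51 and 2.71 in Col-0, by 1.84 (SE 0.38, adjusted p = 0.000813, edgeR). Its gene body fell in both, by 1.18 (adjusted p = 0.0268) and 1.92 (adjusted p = 0.0322). The pot samples of Col-0 had ratios of 5.69 and 5.83, as high as the double mutants. The pot call of the ratio was lost without the second sample of pho1-7 hpr1-5 (1.07) or of pho1-7 (0.97), and both ratio calls were lost in DESeq2. The gene-body falls were not called in DESeq2 in pots, nor without the second tex1-4 sample on plates (-1.74).

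MIR156b had no gene-body read in either pho1-7 hpr1-5 sample, beside 26 and 7 extension reads, against 12 beside 4 and 19 beside 3 in pho1-7. With 3 counts over the group as the floor its ratio was 2.48-fold higher in pho1-7 hpr1-5. That value takes the pho1-7 ratio, which rests on 7 gene-body reads, as exact, so it is not a lower bound. The test called the rise (adjusted p = 0.043, edgeR), but not without the first sample of pho1-7 hpr1-5 or of pho1-7, nor in DESeq2. The fitted size of the rise depends on the prior count and is not a bound either.

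AT5G44060, annotated as an embryo sac development arrest protein, had the clearest fall in pho1-7 hpr1-5. Its ratio was 0.193 and 0.201 in pho1-7 hpr1-5 and 0.435 and 0.423 in pho1-7 tex1-4, against 0.428 and 0.542 in pho1-7, with 0.336 and 0.359 in pot Col-0. Both pho1-7 hpr1-5 samples lay below every other pot sample, with a log2 change against pho1-7 of -1.29 (SE 0.142, adjusted p = 3.99e-07, edgeR). On plates tex1-4 was at 0.285, 0.371 and 0.337 against 0.215, 0.249 and 0.215 in Col-0, a change of 0.54 (adjusted p = 0.0128) under 2-fold. The next gene on the same strand, AT5G44065, begins 1186 bases downstream and its own count fell by 2.26 on the log2 scale in pho1-7 tex1-4 (adjusted p = 0.00586) and by 3.18 in pho1-7 hpr1-5 (adjusted p = 0.00225, edgeR). These counts were low, at a mean of 0.257 and 0.123 CPM against 1.13 CPM in pho1-7. With 1 sample left out the pho1-7 tex1-4 change ran from -3.19 to -1.52.

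AT1G35513, a pseudogene or transposable element gene, was the 1 member whose ratio fell both in pots and on plates. It had ratios of 0.242 and 0.291 in pho1-7 hpr1-5 and 0.396 and 0.464 in pho1-7 tex1-4, against 0.649 and 0.575 in pho1-7 and 0.685 and 0.578 in pot Col-0. On plates they were 1.20, 1.14 and 1.39 in tex1-4 against 2.35, 4.12 and 2.90 in Col-0. The groups do not overlap, and the log2 change was -1.17 in pho1-7 hpr1-5 (SE 0.326, adjusted p = 0.0146) and -1.30 on plates (SE 0.218, adjusted p = 8.88e-05, edgeR), the first of which DESeq2 on the extension counts alone did not call. The count of AT1G35515, which begins 299 bases downstream on the same strand, fell too, by 1.62 in pho1-7 hpr1-5 (adjusted p = 0.000155) and by 1.24 on plates (adjusted p = 0.0014, edgeR), and whether its reads enter the extension of AT1G35513 was not tested.

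The other falls in pho1-7 hpr1-5 were those of 2 uncharacterized genes. AT5G48175 was at 0.150 and 0.196 in pho1-7 hpr1-5 and 0.209 and 0.281 in pho1-7 tex1-4, against 0.378 and 0.415 in pho1-7 and 0.383 and 0.435 in pot Col-0 (log2 change against pho1-7 -1.17, SE 0.187, adjusted p = 6.73e-05, edgeR). AT3G19663 had 1 and 2 extension reads in pho1-7 hpr1-5, beside 14 and 11 gene-body reads, against 13 and 16 beside 26 and 22 in pho1-7. Its log2 change was -2.24 (SE 0.777, adjusted p = 0.0533, edgeR), -1.67 without the first pho1-7 hpr1-5 sample and -1.97 without the second pho1-7 sample, when it was not called, and -2.93 without the second pho1-7 hpr1-5 sample.

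**Figure D4:**
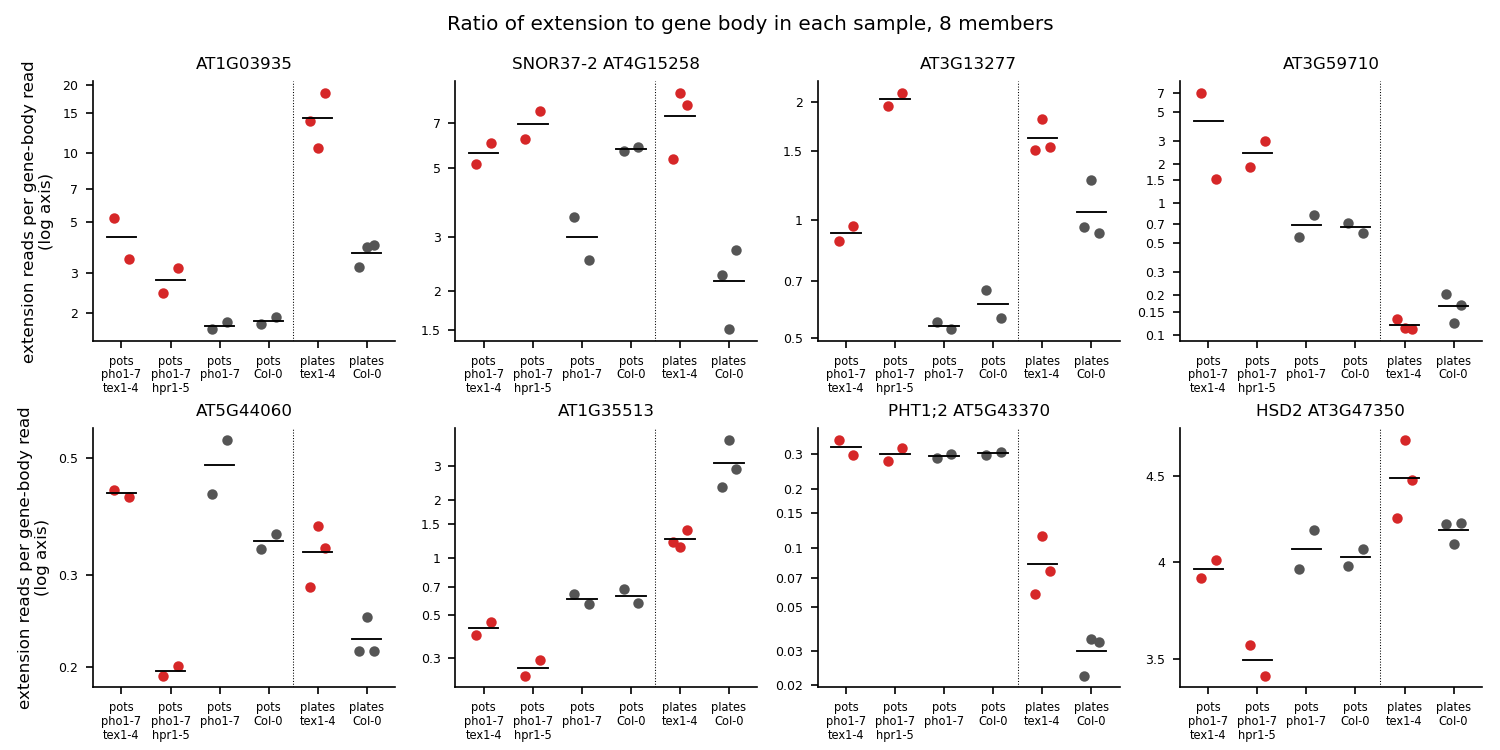
Extension reads per gene-body read (log axis) in each sample for 8 members, 1 point per sample, with bars at the group mean; red points are groups with a THO/TREX mutation, grey points pho1-7 and Col-0, and the dotted line divides pots from plates. HSD2 stays between 3.42 and 4.73 in all samples, while AT3G13277 is at 1.96 and 2.11 in pho1-7 hpr1-5 against 0.549 and 0.528 in pho1-7.

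Set directly against each other, the double mutants differed in 3 of 300 members: 2 had a higher ratio in pho1-7 hpr1-5 than in pho1-7 tex1-4 and 1 a lower one, where 1.65% and 3.57% of all rows were called. AT3G13277 was higher by 1.13 on the log2 scale (SE 0.102, adjusted p = 1.19e-07) and AT5G44060 lower (log2 change -1.12, SE 0.142, adjusted p = 1.06e-05, edgeR). MIR160a had no gene-body read in pho1-7 hpr1-5, beside 27 and 30 extension reads, against 96 beside 8 and 146 beside 9 in pho1-7 tex1-4. With 3 counts as the floor and the pho1-7 tex1-4 ratio taken as exact, its ratio was 1.33-fold higher, which is not a lower bound. The test called the difference (adjusted p = 0.0813, edgeR). Against pho1-7, with 92 beside 4 and 91 beside 4, the value found in the same way was 0.831. The MIR160a call was lost without the first pho1-7 tex1-4 sample or either pho1-7 hpr1-5 sample, and in DESeq2.

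On plates 4 of the 6 members with a risen ratio were snoRNA genes. That is 17.4% of the 23 snoRNA members, where 11.0% of all 1430 rows rose. The ratio fell in 4.35% of the snoRNA members and in 2.52% of all rows, differences that were not tested. Besides AT1G03935 and SNOR37-2, AT1G03502 had 20.7, 29.4 and 20.1 in tex1-4 against 3.46, 4.89 and 9.33 in Col-0, a rise by 2.11 on the log2 scale (SE 0.399, adjusted p = 0.000345), and its gene body fell by 1.66 (adjusted p = 0.042, edgeR), no longer called without tex1-4 sample 2 (-1.43). AT1G32385 had 9, 13.9 and 8.31 in tex1-4 against 5.03, 4.04 and 3.89 in Col-0, a rise by 1.19 (adjusted p = 0.0114, edgeR) beside a gene-body fall by 1.80 (adjusted p = 0.0151), and without the second tex1-4 sample the change was 0.98. One snoRNA gene went the other way: AT1G20015 had 1.64, 2.20 and 1.16 in tex1-4 against 5.71, 2.50 and 3.58 in Col-0, a log2 change of -1.13 (adjusted p = 0.0458, edgeR) that was not called without Col-0 sample 1 (-0.90) or 3 (-1.11) or tex1-4 sample 3 (-0.89), nor in DESeq2. In the snoRNA genes with a risen ratio the gene body had thus fallen. Poly(A)+ selection favours polyadenylated RNA, and which RNAs gave the reads at snoRNA genes was not tested. The mature snoRNAs were not measured separately.

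PHT1;2 (AT5G43370), a phosphate transporter of the root surface, rose on plates from a low level. It had 0.0586, 0.115 and 0.0763 extension reads per gene-body read in tex1-4 against 0.0224, 0.0344 and 0.0334 in Col-0, without overlap, a rise by 1.41 on the log2 scale (SE 0.287, adjusted p = 0.000725, edgeR). In pots its ratio was near 0.3 in every group, at 0.318 over both pho1-7 tex1-4 samples, 0.296 in pho1-7 hpr1-5, 0.294 in pho1-7 and 0.302 in Col-0. The tex1-4 effect in pots (against pho1-7) minus that on plates (against Col-0) was -1.26 (SE 0.31, adjusted p = 0.0209, edgeR). Of all rows, 3.63% were called in that direction. What the pho1-7 background adds to this difference was not tested. PHT1;1 is nearly identical in sequence, so reads of both genes can be exchanged. MIR823 had 74 extension reads beside 1 gene-body read, 67 beside 3 and 56 beside 0 in tex1-4, against 18 beside 2, 12 beside 5 and 34 beside 2 in Col-0, and its ratio rose by 2.73 (SE 0.97, adjusted p = 0.045, edgeR), a call lost in DESeq2 on the ratio and without Col-0 sample 2 (1.87) or tex1-4 sample 3 (2.29).

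The list carried over to plates in part. Of the 300 members, 282 had at least 20 extension reads over the 3 plate Col-0 samples, and their ratio was lower in plate than in pot Col-0 in 240 and higher in 42, with a median of 0.701 times the pot ratio; 242 were within 2-fold, 37 over 2-fold lower and 3 over 2-fold higher. The other rows had a median of 0.613 over 990, lower on plates as well, with 69.1% within 2-fold against 85.8% of the members. These values have no test, since the members were chosen for a high ratio in pots and a lower value elsewhere follows in part from that choice. Protein-coding members were lower on plates in 176 of 194 (median 0.675), microRNA genes in 19 of 25 (0.815) and snoRNA genes in 15 of 23 (0.967).

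**Figure D5:**
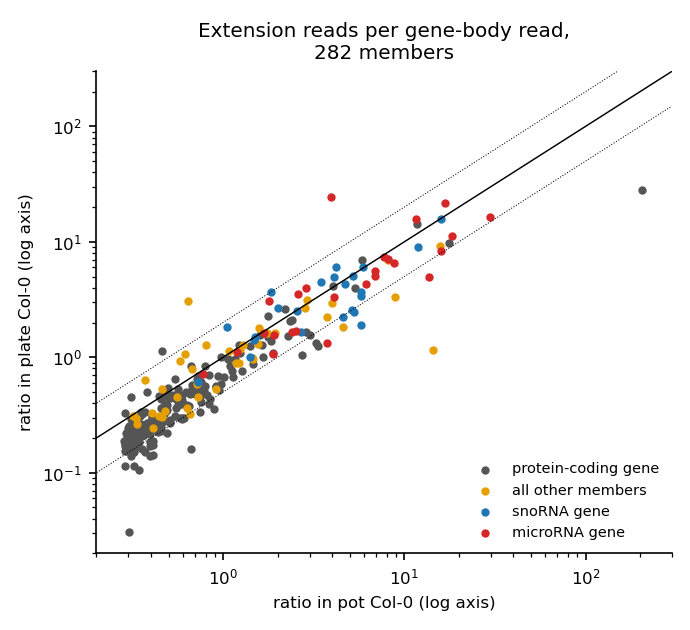
Ratio of extension to gene body in plate Col-0 (3 samples summed) against pot Col-0 (2 samples summed), both on log axes, for 282 members coloured by class; the solid line is equality and the dotted lines 2-fold off it. Most points lie under the line of equality, 240 of 282.

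At the extremes, the 18S rRNA gene AT2G01010 was at 1.16 on plates against 14.4 in pots, PHT1;2 at 0.0303 against 0.302 and AT5G28491 at 27.9 against 205, the last from 2 pot gene-body reads. MIR156b was higher on plates, at 24.3 against 3.92, AT1G35513 at 3.08 against 0.636 and AT3G28650, a C1-domain gene, at 1.14 against 0.460. AT3G28650 had 1.04, 1.43 and 1.07 in the plate Col-0 samples and 0.449 and 0.472 in the pot Col-0 samples, with no overlap.

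The other 18 members had under 20 extension reads on plates and were genes with little expression there. In all 18 the gene body was lower in plate than in pot Col-0, in 12 of them more than 10-fold. They held 0.0305% of the extension reads of plate Col-0 but 27.5% of those of pot Col-0, since AT5G33355, AT5G26130, AT1G54950 and AT4G11393 were among them, as were WRKY59, the neighbouring AT1G33900 and AT1G33910, and MIR827, a microRNA known to be induced by phosphate starvation. No extension row belonged to any of 12 phosphate-starvation genes listed (among them IPS1, SPX1, PHT1;1 and PHO1) or of 8 THO/TREX genes.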

How the data were processed

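Root poly(A)+ RNA was sequenced with a strand-specific kit. The authors mapped reads with HISAT2, assembled 3′ extensions from 10-nucleotide bins of the intergenic intervals of TAIR10.31, kept those longer than 200 nucleotides, and deposited 1 table of raw read counts per gene (exons) and 1 per extension for each sample, made with HTSeq; versions and the strand setting are not given in the sources used here, so reads of a gene and an overlapping antisense gene may not be separated. The deposited values were not normalized. HTSeq's counters for unassigned reads were left out: reads with no feature were 0.915 to 1.38% and non-unique reads 3.41 to 5.12% of the gene tables, and 81.9 to 84.5% of the reads in the extension tables had no feature.

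Ratios are extension over gene-body counts, and CPM are counts per 1000000 gene-body reads. The ratio test (edgeR 4.0.16 in R 4.3.3, glmQLFit and glmQLFTest) used 2 observations per sample, a term per sample and a term for extension by genotype, over rows with at least 10 extension reads in the fit, with all samples of an experiment sharing the spread. Gene bodies were tested after filterByExpr and TMM. Calls needed an adjusted p under 0.1 and over 2-fold. The scripts were checked on simulated counts. DESeq2 1.42.0 and DESeq2's p of the extension counts alone joined to the ratio's fold change, and other filters, thresholds, sample sets and left-out samples served as alternatives. Gene classes, distances, seeds and motifs were read from RefSeq's TAIR10.1, which held 291 of 300 members; all 26 microRNA genes had mature entries, and AT4G04409 had one without being typed as a microRNA gene. Tables were made with Python 3.11.15 and pandas 2.3.3, figures with matplotlib 3.10.9.

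Members and gene lists were chosen with earlier results of these data known. The text names the 12 highest ratios, the 10 largest read counts, 3 rows on each side of the limit, up to 5 raised and 5 lowered members per ratio comparison by adjusted p, members called alike in pots and on plates, the 3 highest and 3 lowest plate-over-pot ratios, microRNA members, up to 3 risen and 3 fallen gene bodies per comparison, and called downstream genes; others were named after their values were seen.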

Additional observations from a re-analysis of the deposited data

Results flagged for a closer look

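Differences between mutants or between the pot and plate experiments that passed the test of the difference itself are the values here. The change of the ratio in tex1-4 differed between pots and plates for AT3G59710, by 2.36 on the log2 scale, and for PHT1;2 (AT5G43370), by -1.26. In pots tex1-4 was compared within pho1-7 and on plates with Col-0, so background and growth system cannot be told apart here. The ratio differed between pho1-7 hpr1-5 and pho1-7 tex1-4 for AT3G13277 (1.13 on the log2 scale), MIR160a (AT2G39175, a fitted 4.09 that depends on the prior count, as no gene-body read was found in pho1-7 hpr1-5) and AT5G44060 (-1.12).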

How the results depend on the processing

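No called change of a single ratio (24) or gene body (90) turned its direction; with DESeq2 on the extension counts alone the fold change is the ratio's own, so that setting bears on the call only. Of the ratio values 124 of 136 under the other settings, 12 of 22 with the extension counts alone and 169 of 188 with 1 sample left out kept their call, while 14 and 71 of the gene-body values lost theirs under other settings and with 1 sample left out. In pho1-7 tex1-4 the count of lowered members was 0 at an adjusted p under 0.05, in DESeq2 on the ratio and in DESeq2 on the extension counts alone (1 in the report). In pho1-7 hpr1-5 DESeq2 on the ratio gave 2 raised members (4 in the report). Between the double mutants 1 member was raised at 0.05 and in both DESeq2 models, and 2 were lowered when Col-0 left the fit. On plates DESeq2 gave 3 raised on the extension counts alone and 1 lowered on the ratio, and for the difference between pots and plates 0 raised on the ratio. The cause was not tested.

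With 1 sample left out at a time, where a lone sample is assumed to vary like the other groups, raised and lowered members were 1 to 3 and 0 to 2 in pho1-7 tex1-4, 3 to 6 and 3 to 4 in pho1-7 hpr1-5, 1 to 4 and 1 to 3 between the double mutants, 5 to 6 and 1 to 3 on plates, and 1 and 1 to 2 for the difference between pots and plates. Median log2 changes of the ratio ran from -0.094 to 0.017, -0.13 to -0.08, -0.11 to -0.021, 0.05 to 0.13 and -0.18 to -0.11 in the same order. Risen and fallen gene bodies were 13 to 18 and 11 to 18, 13 to 17 and 12 to 17, and 7 to 13 and 15 to 22 in the 3 comparisons.

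Adding the replicate number as a block gave 2 raised and 1 lowered in pho1-7 tex1-4, 4 and 4 in pho1-7 hpr1-5 and 6 and 3 on plates; the block moved no count by over 1.5 times. Replicate numbers were not used as pairs: the deviations of same-numbered samples correlated at -0.0988 to 0.058 across extensions and at -0.277 to 0.337 across genes, the highest for pho1-7 hpr1-5 with pho1-7, where a pair of samples per group cannot show more, and there the block gave 14 risen and 13 fallen gene bodies. With crossed pairs in pho1-7 tex1-4, an alternative chosen after seeing the data, 16 gene bodies rose and 16 fell.

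Other rules for the list moved its median ratio: 0.521 with at least 50 reads (266 rows shared with the 300), 0.568 and 0.562 on either pot sample alone, 0.648 on plate Col-0 (248 shared) and 1.68 for 150 rows. The last 2 lists held 26.8% and 43.5% of the pot Col-0 extension reads. Low gene-body counts, under 100 reads in 98 members, limit the precision of the highest ratios.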
